A study of Arabidopsis thaliana with 7 samples.

Results

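The genes described here are the Arabidopsis leaf transcripts that stood at least 1 log2 unit (2-fold) lower at 12 h than at 6 h after spraying, both in leaves sprayed with salicylic acid (SA) and in leaves sprayed with the wetting agent alone. The rule was applied to the 13513 probe sets that named 1 gene, and 144 of them, for 144 loci, met it. These 144 probe sets are called members below. GIGANTEA (GI), a nuclear protein of the circadian clock, was the largest of them, and it was the gene given as the marker of this pattern. Since both falls chose the members, the falls are given as a description, with no test.

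The tested plants were Col-0 at 3.5 weeks, sprayed with 0.5 mM SA in 0.02% Silwet, a surfactant, and harvested after 3, 6, 12 or 24 h. The controls were Col-0 plants of the same age sprayed with 0.02% Silwet alone and harvested after 6 h or 12 h, and untreated plants taken just before spraying. All plants were grown in a 12 h photoperiod, and each sample pooled mature leaves from a few plants. RNA from each of the 7 conditions was read on 1 Affymetrix ATH1 array, on which several short probes together, a probe set, report 1 transcript. No condition had a second array, so differences between single arrays carry no p-value here. SA is the phenolic hormone best known for its part in defence against biotrophic pathogens. The clock hour of spraying is not given in the sources used here. Untreated leaves and leaves taken 24 h after SA share a clock hour.

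A large share of the leaf transcriptome cycles daily under the joint control of the circadian clock, light and sugar status. GI protein helps set the pace of the clock and promotes flowering in long days through CONSTANS, and GI transcript in light-dark cycles is known to peak late in the day and to drop in the dark. Cold-regulated genes of the COR family, which encode proteins that protect membranes and other proteins during freezing and water loss, are gated by the same clock. Chaperones of the endoplasmic reticulum (ER), which fold secreted proteins, are known targets of SA signalling.

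All values are log2 expression values. The arrays were normalised together, so the median over all 13513 probe sets lay between 6.57 and 6.61 on every array and a shift common to most transcripts would not be seen. The tissue label was checked against leaf markers: the 11 measured genes of a photosynthesis list had mean levels between 10.25 and 14.02. A starch and sugar list, also chosen for mature leaf, ran wider, between 4.43 and 11.51 over 13 measured genes. The 1 measured flower and pollen marker averaged 4.23, the 1 measured root marker 6.09 and the 1 measured phloem marker 8.66. Guard cell markers averaged between 4.31 and 7.91, epidermis markers between 6.72 and 6.84, and cell cycle markers between 4.77 and 7.07. The median over all probe sets was 6.67, so apart from the photosynthesis list this check is weak. The quality probes differed between arrays, and only the rRNA probe set put both 12 h arrays apart from the others. The 25S rRNA probe set read 12.44 on the SA 12 h array and 13.43 on the Silwet 12 h array, against 8.20 to 10.30 on the other 5. The excess of the 3′ over the 5′ GAPDH probe set, a sign of RNA integrity, was 0.57, 0.62, 1.49 and 1.19 in SA at 3, 6, 12 and 24 h, 0.85 in untreated leaves, and 1.78 and 1.41 in Silwet at 6 h and 12 h. From 6 h to 12 h the GAPDH excess thus rose with SA and fell with Silwet. The same excess for actin was 2.48 and 2.44 with SA and 2.39 and 1.84 with Silwet at those times. Both 12 h arrays differed from the others in rRNA signal as well as in the members, and the part of this in the falls was not tested. In leaf extracts fewer cells of a type and less RNA per cell cannot be told apart.

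Of the 13513 probe sets, 386 (2.86%) were lower by at least 1 log2 unit at 12 h than at 6 h with SA and 401 (2.97%) with Silwet alone. The members made up 37.3% of the SA list and 35.9% of the Silwet list. The median member fell by 1.48 with SA and by 1.66 with Silwet. Averaged over both arms the drop was 3 log2 units or more for 9 members, 2 or more for 44, and under 1.5 for 53. The fall was within 1 log2 unit of equal in both arms for 114 members, while it was smaller with SA by 1 or more for 23 and larger by 1 or more for 7. The opposite pattern, higher by at least 1 log2 unit at 12 h in both arms, was seen for 73 probe sets.

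The threshold cut through a continuous range. Just inside it were AT4G26940, at -1.0001 in SA and -1.0078 in Silwet, AT5G02590, at -1.0185 in SA and -1.2579 in Silwet, and AT2G34840, at -1.5025 in SA and -1.0196 in Silwet. Just outside it were AT5G01790, at -0.9999 in SA and -3.061 in Silwet, AT2G29670, at -0.9979 in SA and -1.5829 in Silwet, and AT5G15910, at -0.9975 in SA and -1.3899 in Silwet. The smaller of both falls was between 1 and 1.1 log2 units for 26 members, and 40 further probe sets had a smaller fall between 0.9 and 1.

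**Figure D1:**
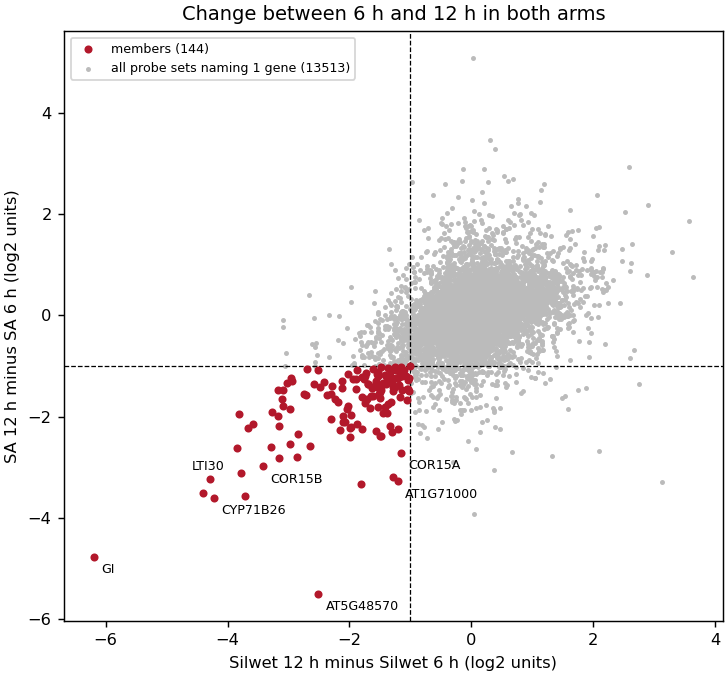
Each point is 1 of the 13513 probe sets naming 1 gene, placed by Silwet 12 h minus Silwet 6 h (x axis, log2 units) and by SA 12 h minus SA 6 h (y axis, log2 units), with members in red and dashed lines at -1. GI lies at -6.19 and -4.77, far from the other members, and AT5G48570 lies at -2.51 and -5.50.

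Symbols were available for 28 members and a further pair had a named synonym, so 30 members are described by role below. The other 114 had a locus number only in the tables used here and are given without a role. In these groups all members carry the fall by choice, and what differs among them is the level at other times and the response to SA.

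In the clock and flowering group, GI had the largest mean fall between 6 h and 12 h of all members. GI read 8.76, 10.12, 5.36 and 9.19 in SA at 3, 6, 12 and 24 h, against 8.71 in untreated leaves and 11.01 and 4.83 in Silwet at 6 h and 12 h. Among the SA arrays GI was highest at 6 h and lowest at 12 h, as it was among the controls with untreated leaves included. Silwet alone was read at 6 h and 12 h only, and the order of these times is set by the rule. At 24 h of SA, GI stood 0.48 from its untreated level at the same clock hour. With SA the 12 h minus 6 h difference was -4.77, and with Silwet it was -6.19. SA minus Silwet was -0.89 at 6 h and 0.53 at 12 h, so the arms overlapped. SNZ, an AP2-type repressor of flowering, read 6.71, 7.25, 6.06 and 7.71 in SA at 3, 6, 12 and 24 h, against 7.94, 8.15 and 6.99 in untreated, Silwet 6 h and Silwet 12 h leaves. All 4 SA values of SNZ lay below the untreated value, and at matched times SA was lower than Silwet by less than 1 log2 unit.

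The few other measured genes of a clock list did not share the pattern. The list of 40 clock genes had 4 measured, of which GI alone was a member. For TIC, a clock regulator, the 12 h minus 6 h difference was 0.25 with SA and 0.10 with Silwet, and for FIO1 it was 0.20 with SA and 0.68 with Silwet. COR27, a cold-regulated night-time clock component, was at -0.03 with SA and 1.52 with Silwet. Most core clock genes had no probe set naming 1 gene and are not analysed here.

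The cold and drought group held 5 members. The list of 65 abscisic acid, cold and drought genes had 4 measured, COR15A, COR15B, COR47 and LTI30, and all 4 were members. The falls of such a list are what the rule selected and support nothing further. COR15B, which encodes a chloroplast protein that stabilises membranes during freezing, read 10.44, 12.04, 9.06 and 8.80 in SA at 3, 6, 12 and 24 h, against 10.36, 13.52 and 10.10 in untreated, Silwet 6 h and Silwet 12 h leaves. COR15A, its close relative and neighbour on the chromosome, read 11.85, 12.82, 10.11 and 10.79 in SA, against 11.47, 13.67 and 12.52 in the same controls. Both peaked at 6 h, and both were lower with SA than with Silwet at each shared time, COR15A by 0.85 at 6 h and by 2.41 at 12 h.

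LTI30, a dehydrin that binds membranes, differed from the COR15 pair in its response to SA. It read 9.04, 11.71, 8.47 and 6.52 in SA at 3, 6, 12 and 24 h, against 6.08, 9.71 and 5.42 in untreated, Silwet 6 h and Silwet 12 h leaves. LTI30 thus stood above Silwet by 2.00 at 6 h and by 3.05 at 12 h, and came within 0.44 of untreated leaves by 24 h. COR47, another dehydrin, was 0.86 lower with SA than with Silwet at 6 h and level with it at 12 h, where both arrays read 10.71. TIL, a lipocalin induced by temperature stress, read 11.66, 12.01, 10.74 and 11.75 in SA, against 10.61, 12.25 and 10.31 in the controls, and its arms overlapped. The limma adjusted p of SA against control for these 5 genes ran upward from 0.424, so none passed 0.05.

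The protein folding group held 3 members, all above untreated leaves by at least 1 log2 unit at 3 h and at 24 h of SA. Of all probe sets, 7.2% were so at 3 h and 3.51% at 24 h. The group was formed with earlier results of these data known and leaves out members known by locus only. Its count is therefore a description of these 3 genes and not of all folding genes among the members. ATERDJ3B, a J-domain co-chaperone of the ER, read 12.22, 13.08, 11.66 and 11.38 in SA at 3, 6, 12 and 24 h, against 9.32, 10.67 and 9.39 in untreated, Silwet 6 h and Silwet 12 h leaves. Every SA array was above every control array for this gene. CRT1b, a calreticulin that binds calcium and folds glycoproteins in the ER, read 11.49, 12.75, 10.61 and 11.12 in SA, against 9.71, 10.65 and 8.78 in the controls. Its SA 12 h value was just under its Silwet 6 h value, and at matched times SA was higher by 2.1 at 6 h and by 1.84 at 12 h.

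AT5G48570, a FKBP-type prolyl isomerase known as ROF2 that is induced by heat, had the largest fall of any member in the SA arm. It read 10.42, 10.35, 4.86 and 9.58 in SA at 3, 6, 12 and 24 h, against 5.80, 6.49 and 3.98 in untreated, Silwet 6 h and Silwet 12 h leaves. Its level with SA was therefore high at 3, 6 and 24 h but within 0.88 of Silwet at 12 h. A list of 45 heat shock and folding genes had 10 measured, and AT5G48570 and ATERDJ3B were the members among them. Hop3 and Fes1A, cytosolic co-chaperones on the same list, went opposite ways in the arms, at -3.29 and -2.67 with SA and at 3.14 and 2.1 with Silwet, and so were not members.

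**Figure D2:**
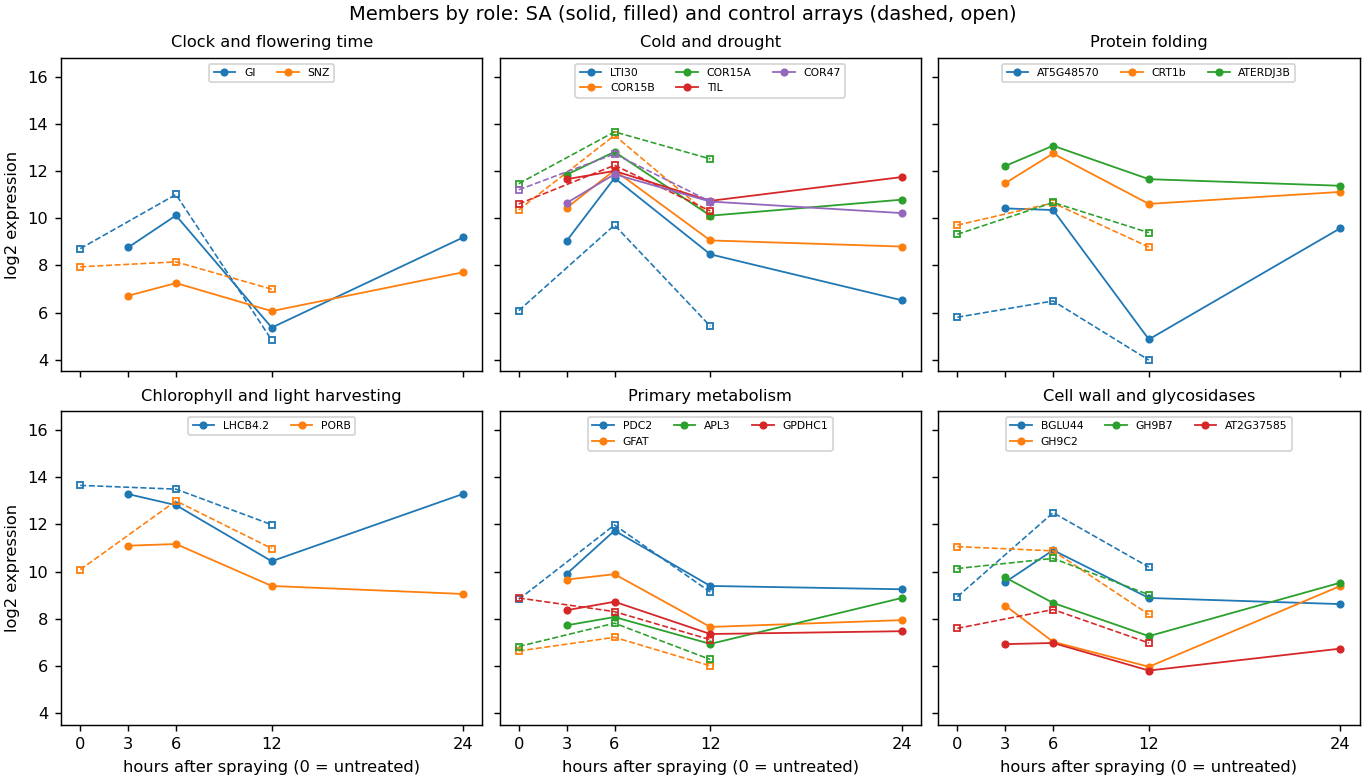
The log2 expression (y axis) of members by role is plotted against hours after spraying (x axis), with SA arrays as filled points on solid lines and control arrays as open squares on dashed lines, untreated leaves at 0. ATERDJ3B and CRT1b run above their dashed lines at 6 h and 12 h, GH9C2 and BGLU44 below theirs, and the GI lines cross.

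The 2 named members of chlorophyll and light harvesting were lower with SA than with Silwet at both shared times. PORB was lower by at least 1 log2 unit at both times, as were 4.08% of all probe sets, and LHCB4.2 at 12 h only. The group was formed with earlier results of these data known, so this is a description. PORB, a light-dependent protochlorophyllide reductase of chlorophyll synthesis, read 11.10, 11.17, 9.39 and 9.05 in SA at 3, 6, 12 and 24 h, against 10.08, 13.00 and 10.98 in untreated, Silwet 6 h and Silwet 12 h leaves. LHCB4.2, a minor antenna protein of photosystem II, read 13.29, 12.82, 10.44 and 13.30 in SA, against 13.66, 13.50 and 11.99 in the controls. The photosynthesis list had 11 measured genes and LHCB4.2 was its only member here. The other measured LHCB4 genes moved less: the 12 h minus 6 h difference of LHCB4.1 was -0.55 with SA and -0.13 with Silwet, and that of LHCB4.3 was 0.99 with SA and 0.02 with Silwet.

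The 4 members of primary metabolism responded to SA in different ways. PDC2, a pyruvate decarboxylase of fermentation, read 9.90, 11.74, 9.39 and 9.25 in SA at 3, 6, 12 and 24 h, against 8.82, 11.98 and 9.13 in untreated, Silwet 6 h and Silwet 12 h leaves, so the arms were within 0.27 of each other at both shared times. GFAT, which makes glucosamine phosphate for protein glycosylation, read 9.66, 9.89, 7.65 and 7.94 in SA, against 6.63, 7.21 and 6.00 in the controls. All 4 SA values of GFAT were above all 3 control values. APL3, a large subunit of the starch-synthesis enzyme ADP-glucose pyrophosphorylase, was 2.06 higher at 24 h of SA than in untreated leaves but within 0.66 of Silwet at 6 h and 12 h. GPDHC1, a cytosolic glycerol phosphate dehydrogenase, was 1.40 lower at 24 h of SA, at 7.47, than in untreated leaves, at 8.88.

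A list of starch and sugar genes had 13 measured and 1 member, APL3. SBE2.2, a starch branching enzyme, missed the rule at -1.04 with SA and -0.85 with Silwet. Of 6 measured genes of a dark and low-sugar list none was a member, and 3 were higher by at least 1 log2 unit at 12 h in both arms. Across all 24 lists used, 134 distinct loci were measured and 11 of them (8.21%) were members, on 7 of the lists. Of all 13513 probe sets naming 1 gene, 144 were members. The lists were chosen with earlier results of these data known, so their share is a description only.

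All 4 members of the cell wall and glycosidase group were lower with SA than with Silwet by at least 1 log2 unit at both 6 h and 12 h. The same held for 29 of all 144 members and for 4.08% of all probe sets. The group was formed with earlier results of these data known and leaves out members known by locus only. Its count is therefore a description of these 4 genes and not of all cell wall genes among the members. GH9C2, an endoglucanase of the cell wall, read 8.56, 7.02, 5.96 and 9.39 in SA at 3, 6, 12 and 24 h, against 11.06, 10.88 and 8.18 in untreated, Silwet 6 h and Silwet 12 h leaves. Its difference from Silwet was -3.86 at 6 h and -2.22 at 12 h. GH9B7, of the same enzyme family, differed by -1.88 at 6 h and -1.76 at 12 h. BGLU44, a beta-glucosidase, differed by -1.58 at 6 h and -1.31 at 12 h. AT2G37585, a glucuronosyltransferase by its synonym GlcAT14C, differed by -1.42 at 6 h and -1.17 at 12 h. The limma adjusted p for SA against control over all arrays was 0.206 at the lowest among these 4, so the difference did not pass 0.05. A list of cell wall and expansion genes had 15 measured and no member.

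The remaining named members were enzymes, channels and kinases. CYP71B26, a cytochrome P450, had the fourth largest fall and read 10.13, 10.94, 7.33 and 10.72 in SA at 3, 6, 12 and 24 h, against 10.28, 10.83 and 6.6 in untreated, Silwet 6 h and Silwet 12 h leaves. Its 12 h values were the lowest of all arrays, and the other 5 arrays lay within 1 log2 unit of one another. MSRB6, a methionine sulfoxide reductase that repairs oxidised proteins, read 10.13, 8.63, 5.80 and 11.21 in SA, against 9.61, 11.36 and 8.22 in the controls. SA minus Silwet for MSRB6 was -2.74 at 6 h and -2.42 at 12 h, whereas at 24 h of SA it was 1.59 above untreated leaves.

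GLR2.7, a glutamate receptor-like channel, read 9.50, 9.63, 8.60 and 9.66 in SA, against 8.24, 8.11 and 6.95 in untreated, Silwet 6 h and Silwet 12 h leaves, with no overlap. Its relative GLR3.5 differed between SA and Silwet by -0.56 at 6 h and -0.05 at 12 h, as did the MAP kinase ATMPK8, by -0.51 and 0.08 at the same times. UGT84A3, a glucosyltransferase of phenolic acids, was above Silwet by 1.16 at 6 h and 0.16 at 12 h, and UGT76E11, of the same superfamily, by 0.42 and 0.64. BETA-VPE, a vacuolar processing protease, was above Silwet by 1.2 at 6 h and 0.80 at 12 h. OPCL1, a CoA ligase of jasmonate synthesis, was above it by 0.63 and 0.96, and DJ1D, of the DJ-1 family, was below it by 0.73 and 0.59.

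Among members known by locus only, AT1G51090 had the third largest fall. It read 7.19, 9.88, 6.38 and 7.15 in SA at 3, 6, 12 and 24 h, against 7.55, 10.87 and 6.48 in untreated, Silwet 6 h and Silwet 12 h leaves. It was highest at 6 h and lowest at 12 h among the SA arrays and among the controls with untreated leaves included. AT5G35970 had another shape, with 11.84, 10.74, 8.51 and 12.78 in SA, against 12.59, 11.79 and 8.13 in the controls, so that 12 h was the low point of a level that was high at the other times. AT2G23840 hardly differed between arms, at 7.60 in SA and 7.47 in Silwet at 12 h, and at 10.40 in SA and 10.32 in Silwet at 6 h. The other loci among the 16 largest mean falls were AT1G73480, AT5G59130, AT3G44450, AT5G02180, AT3G09440, AT5G62360 and AT3G14200.

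The member median was 9.31, 9.49, 7.70 and 8.94 in SA at 3, 6, 12 and 24 h, against 8.58, 9.74 and 7.77 in untreated, Silwet 6 h and Silwet 12 h leaves. Members differed in shape over the arrays. With the mean of both 6 h arrays and the mean of both 12 h arrays each set against untreated leaves, 51 members were above untreated by at least 1 log2 unit at 6 h and near it at 12 h, as PDC2 was. A further 39 were near untreated at 6 h and below it at 12 h, as CYP71B26 was. Of the others, 18 were below untreated at both times, 16 above at both, 13 within 1 log2 unit at both, and 7, GI and AT1G51090 among them, above at 6 h and below at 12 h. This grouping is descriptive, since all classes use the arrays of the rule.

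**Figure D3:**
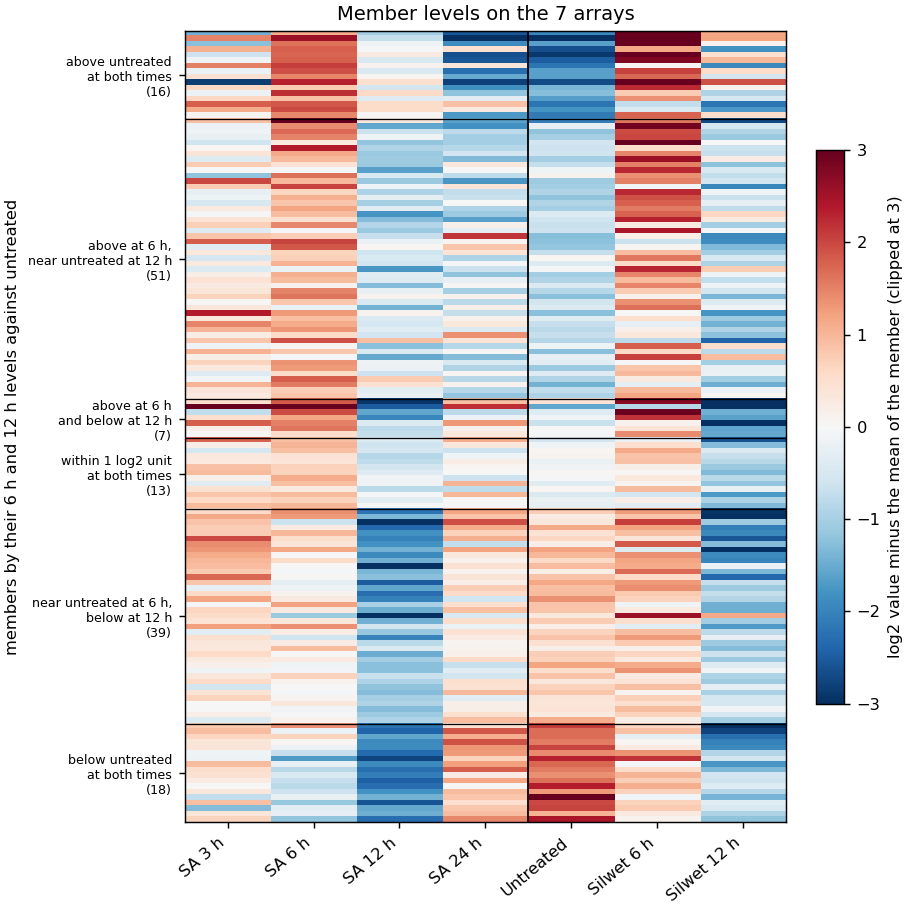
Each row is a member and each column an array, coloured by the log2 value minus the mean of that member over the 7 arrays (clipped at 3), with members grouped by their 6 h and 12 h levels against untreated leaves. The Silwet 12 h and SA 12 h columns are low in most rows, and most rows of the second block, of 51 members, are high in the 6 h columns.

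The SA 3 h, SA 24 h and untreated arrays were not used to choose the members. At 24 h of SA, 23 members (16.0%) were above untreated leaves by at least 1 log2 unit and 14 (9.72%) were below, against 3.51% above and 3.68% below for all 13513 probe sets. The median member difference was -0.07, and 107 members were within 1 log2 unit. At 3 h of SA, 47 members (32.6%) were above untreated leaves and 19 (13.2%) below, against 7.2% above and 6.65% below for all probe sets, with a median of 0.41. Both comparisons share the untreated array, and at 3 h the time of day differs as well. Between SA arrays, 35 members (24.3%) were higher at 3 h than at 24 h and 12 (8.33%) lower, against 5.06% and 4.28% for all probe sets. Members were brighter than most probe sets, with a median level of 8.65, against 6.67 for all, and 137 were at or above that median. Differences of dim probe sets are compressed, and the part of level in these shares was not tested.

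Several members were among those farthest from untreated leaves at both 24 h and 3 h of SA. AT5G48570, described above, was higher by 3.78 at 24 h and by 4.62 at 3 h. AT5G55450 was higher by 3.06 and 3.98 at those times, AT3G51450 by 3.1 and 3.69, and AT4G29520 by 2.55 and 3.72. AT1G06000 was higher by 3.43 at 24 h and 2.12 at 3 h. AT1G56300 read 10.23 in SA at 3 h and 4.96 at 24 h, against 4.96 in untreated leaves, the largest 3 h difference of any member, and AT5G35735 read 12.98 at 3 h and 9.89 at 24 h, against 9.35. On the low side, AT1G48100 was at -2.23 at 24 h and -3.79 at 3 h, AT3G54400 at -2.31 and -2.37, and GH9C2 at -1.67 and -2.50. AT1G78070 was at -1.24 at 24 h and -3.36 at 3 h. AT1G22690, AT2G34930 and AT1G73480 were among the lowest at 24 h only, at -1.95, -1.88 and -1.63, and AT5G64850 and AT1G76240 at 3 h only, at -1.78 and -1.66.

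At the matched times SA and Silwet arrays were set against each other directly. These are arrays that the rule used, in another contrast, so the counts are a description. At 6 h, 27 members (18.8%) were higher with SA by at least 1 log2 unit and 43 (29.9%) lower, against 8.65% and 8.68% of all probe sets. At 12 h, 24 were higher and 34 lower, against 5.98% and 6.01% of all probe sets. The median member difference was -0.39 at 6 h and 0.0 at 12 h. At both times 19 members were higher and 29 lower, against 4.51% and 4.08% of all probe sets, while 64 members were within 1 log2 unit at both times. No member passed 1 log2 unit in opposite directions at the 2 times. The rule leaves little room for this, since it keeps out genes such as Hop3 that did not fall in both arms. The absence is therefore not a result about the members.

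**Figure D4:**
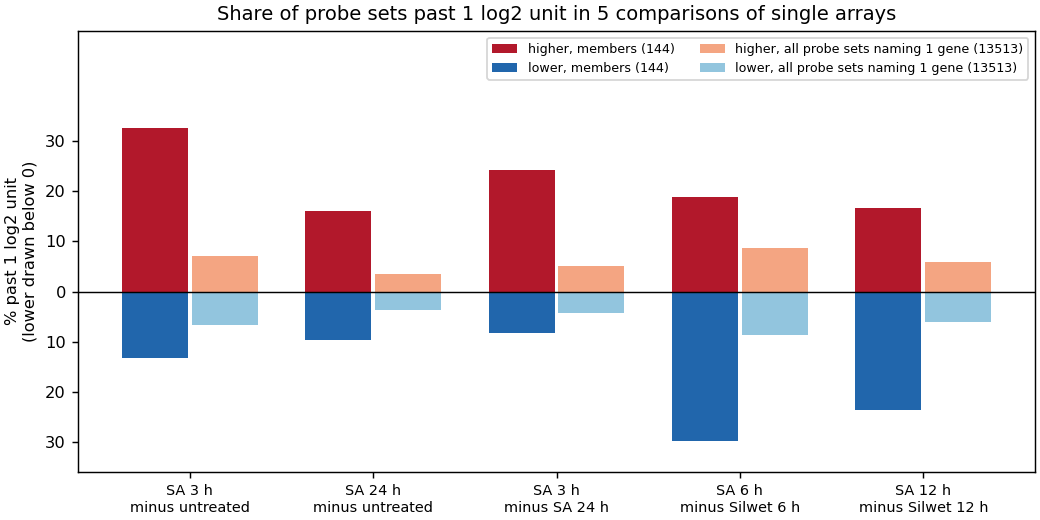
Bars give the share (%, y axis) of the 144 members and of all 13513 probe sets that were higher (above 0) or lower (below 0) by at least 1 log2 unit in each of 5 comparisons of single arrays. Members exceed all probe sets in both directions in each comparison, with 32.6% against 7.2% higher at 3 h of SA.

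The largest differences held at both times were spread over both directions. AT2G31390 read 11.52 in SA and 8.79 in Silwet at 6 h, and 10.47 in SA and 7.18 in Silwet at 12 h. AT5G55450, ATERDJ3B, AT4G29520, LTI30 and CRT1b followed it on the high side. AT3G28220 was farthest on the low side, with 7.32 in SA and 11.03 in Silwet at 6 h, and 5.39 in SA and 9.57 in Silwet at 12 h. AT4G24350 differed by -2.47 at 6 h and -2.51 at 12 h, and AT1G27030 by -2.1 and -2.44. AT5G62360 differed by -3.66 and -2.21, and MSRB6 and GH9C2, described above, were the others on this side.

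**Figure D5:**
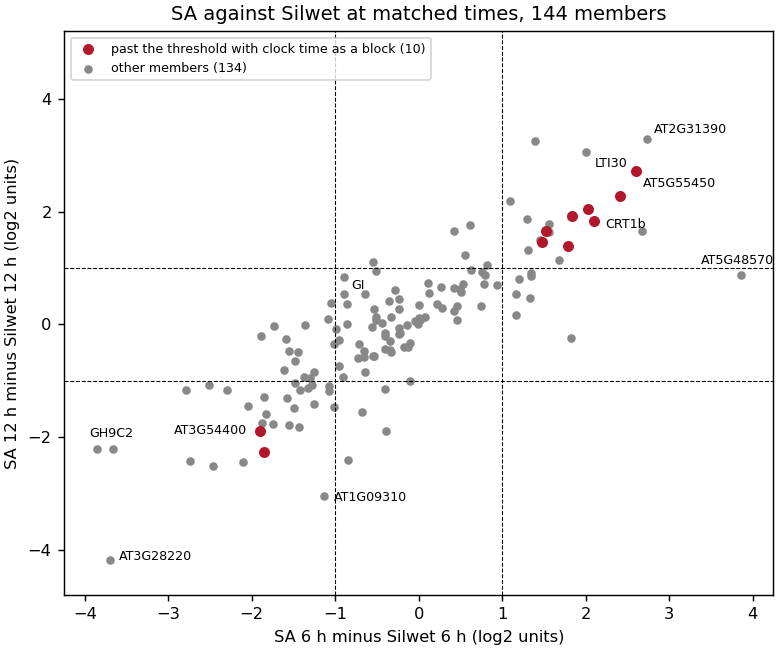
Each of the 144 members is placed by SA 6 h minus Silwet 6 h (x axis, log2 units) and SA 12 h minus Silwet 12 h (y axis, log2 units), with dashed lines at 1 and -1 and in red the 10 members past the limma threshold with clock time as a block. AT2G31390 lies at 2.73 and 3.29, and AT3G28220 at -3.70 and -4.18. No member lies past 1 in opposite directions, which the rule leaves little room for.

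The only comparison with more than 1 array a side was of the 4 SA arrays with the 3 control arrays. Its error is the spread between harvest times of an arm, plus that between sprayed and unsprayed controls. The spread between plant pools and arrays is mixed into it and, with 1 array per condition, cannot be told apart. It is therefore not a measure of the spread between plants. AT5G55450 averaged 11.87 ± 0.66 in SA (SD, n = 4 arrays) and 8.90 ± 0.84 in controls (SD, n = 3 arrays). It read 12.39, 12.47, 11.14 and 11.48 in SA at 3, 6, 12 and 24 h, against 8.41, 9.86 and 8.42 in untreated, Silwet 6 h and Silwet 12 h leaves, with every SA array above every control array. The difference was 2.97 with an SE of 0.48 and a limma adjusted p of 0.0401 over all 13513 probe sets. It was the only member past 0.05, and leaving out any 1 array other than SA 24 h took its adjusted p above 0.05, up to 0.143. No member was called lower. Over all probe sets 1.03% were called higher and 0.303% lower. At an unadjusted p under 0.05 there were 21 members (14.6%), against 20.2% of all probe sets.

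Members vary with time within each arm by choice, and the median SE of the difference was 0.70 for members and 0.19 for all probe sets. With clock time as a block in the same limma fit the median member SE was 0.25, against 0.16 for all. This fit takes SA minus control at 0 or 24 h, 6 h and 12 h, leaves the SA 3 h array without a partner, and has 2 residual degrees of freedom. Its residual also holds the difference between the falls of the arms, which the rule bounds in part, so its calls are not independent of how the members were chosen. In it 8 of the 144 members were higher and 2 lower, with limma adjusted p between 0.0332 and 0.0488. Over all probe sets 0.895% were higher and 0.348% lower. At an unadjusted limma p under 0.05 it had 66 members (45.8%), against 24.5% of all probe sets, with the same dependence on the rule.

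The 8 higher members in the blocked fit were AT5G55450, at a difference of 2.80, ATERDJ3B at 2.25, AT4G29520 at 2.21, CRT1b at 1.78, AT4G16660 at 1.76, AT2G34810 at 1.72, GLR2.7 at 1.53 and AT5G07340 at 1.44. The lower ones were AT3G54400, at -2.03, and AT1G04680, at -1.86. AT4G29520 read 9.66, 10.22, 8.25 and 8.50 in SA at 3, 6, 12 and 24 h, against 5.94, 8.18 and 6.21 in untreated, Silwet 6 h and Silwet 12 h leaves. AT3G54400 read 6.82, 6.02, 4.56 and 6.88 in SA, against 9.19, 7.93 and 6.44 in the controls. Both differed in level between arms, while their fall between 6 h and 12 h in each arm is there by the rule. Without the block the limma adjusted p of these other 9 members lay between 0.0687 and 0.454.

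GI averaged 8.36 ± 2.08 in SA (SD, n = 4 arrays) and 8.18 ± 3.13 in controls (SD, n = 3 arrays). The difference of 0.18 had an SE of 1.61 and a limma adjusted p of 0.966. With clock time as a block it was 0.04 with an SE of 0.34 and a limma adjusted p of 0.959.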

How the data were processed

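The authors deposited log2 expression values for 22810 probe sets, computed by RMA (affy, version not given), per the submitters' processing notes. RMA removes background, forces 1 common distribution on all arrays by quantile normalisation and compresses differences of dim probe sets. Genes were named from the platform annotation and updated through RefSeq (TAIR10.1): 13513 probe sets named 1 gene, 503 several and 8794 none, controls included. Arrays have no read depth, and their number, 7, limits the precision.

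Differences between single arrays were counted past 1 log2 unit. SA against control was fitted with limma 3.58.1 in R 4.3.3 (lmFit, eBayes with a trended prior, two-sided, Benjamini-Hochberg over 13513 probe sets, threshold 0.05). The code was run on simulated data with equal noise for all probe sets and no effect of time. That run does not show how the fit behaves on members, which vary with time. Members, lists, role groups and tests were chosen with earlier results of these data known. Genes named are GI, the largest falls, members past the test, the extremes of each comparison, members on a list and those at the threshold; other members with a symbol were added after their values were seen. No promoter or protein sequence was used here.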

Additional observations from a re-analysis of the deposited data

How the results depend on the processing

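The number of members was 226 at a threshold of 0.8 log2 units, 54 at 1.5, and 319 when every probe set was used, against 144. Members past the limma threshold numbered 1, but 3 among the brighter probe sets, 10 with clock time as a block and 0 without the variance trend. Leaving out 1 array gave 0 to 3, with 3 without SA 24 h and 0 without each of the others. At 1.5 log2 units the members higher and lower were 12 and 7 at 24 h of SA against untreated, 26 and 8 at 3 h against untreated, 15 and 3 at 3 h against 24 h of SA, and 15 and 23 at 6 h against Silwet. At 12 h against Silwet 17 were lower. These follow from the stricter threshold. The other 25 counts computed under alternatives stayed within 1.5 times. Among single genes, the SA minus control difference of GI, 0.18, ran between -1.5 and 1.59 when 1 array was left out. That of AT1G04680, -1.37, was -0.70 without SA 12 h and -0.77 without untreated, and that of AT3G54400, -1.78, was -1.11 without untreated. None of these passed the limma threshold. No paired analysis was possible because each condition had 1 array and the labels give no replicate numbers. The fit with clock time as a block sets beside each other arrays of the same clock hour, not paired samples. The planned promoter motif counts were not run, since no promoter sequence was used here.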

Other observations

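Members that neighbour one another among the named genes were counted. There were 4 neighbouring member pairs, of 5909 neighbouring named pairs: COR15B with COR15A, PDC2 with AT5G54970, AT1G73470 with AT1G73480, and AT5G62350 with AT5G62360. AT5G62360 read 5.78, 8.32, 6.18 and 4.66 in SA at 3, 6, 12 and 24 h, against 5.27, 11.98 and 8.39 in untreated, Silwet 6 h and Silwet 12 h leaves. Its neighbour AT5G62350 read 11.30, 11.54, 10.20 and 10.60 in SA, against 11.30, 13.28 and 11.98 in the same controls. Both were lower with SA than with Silwet at each shared time. A further 3 probe sets were lower by at least 1 log2 unit at 12 h with Silwet but higher by as much with SA, and 16 were higher with Silwet but lower with SA.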
